A study of Homo sapiens with 4 samples.

Results

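The comparison described here set a culture of LvM3b colon cancer cells over-expressing the microRNA miR-483 against the LvM3b control culture, gene by gene. Genes were taken where the Detection score of the bead array exceeded 0.99 on at least 1 of the 2 arrays, which gave 9673 of the 18665 genes named on the array. Of these, 9111 were detected on both arrays, 444 on the miR-483 array alone and 118 on the control array alone. The rule used detection only, but a gene detected on 1 array entered through the array where it was brighter, so among those genes a difference was partly set by the choice.

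The series measured messenger RNA on Illumina bead arrays in 4 human colon adenocarcinoma cultures, with 1 array each: LvM3b over-expressing miR-483, LvM3b over-expressing miR-551a, the LvM3b control, and Ls-Parental. LvM3b is known from published work as a line selected for growth in the liver, and Ls-Parental carries a parental line's name, although its cell line entry reads LvM3b. The title names miR-483-5p and asks which genes it and miR-551a suppress; no vector, promoter or clone is given, and the control's entry names no construct. No culture had a replicate, so no p-value or replicate error can be given, every difference below is between 2 single arrays, and the number of arrays limits its precision. The microRNA itself was not among the measurements, so its over-expression was not checked here.

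MicroRNAs are short RNAs that guide Argonaute proteins to messenger RNAs with matching sites, mostly in 3′ untranslated regions, and lower their translation or stability. The effect on any single target is usually modest. The gene for miR-483 lies in an intron of IGF2, the imprinted insulin-like growth factor gene. Part of what follows concerns the amino acid response. In that pathway the kinase GCN2 or its relatives phosphorylate the initiation factor eIF2α, which favours translation of the transcription factor ATF4, and ATF4 with C/EBP partners then binds promoters of genes that make, import and charge amino acids.

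The cells carried the markers of colon epithelium on both arrays. Of 11 such markers 10 were detected, with EPCAM, the epithelial adhesion molecule, at a log2 normalized signal (called level from here on) of 15.29 on the miR-483 array and 15.27 on the control array, and KRT18, an epithelial keratin, at 14.56 on the miR-483 array and 14.38 on the control array. KRT20 was below detection on both. None of 8 hepatocyte markers was detected. Detected members numbered 3 of 8 fibroblast markers (LUM, COL3A1 and PDGFRA), 2 of 7 immune markers (LYZ and CD68) and 1 of 6 endothelial markers (PECAM1). Summed linear normalized signals over the detected members were 466 with miR-483 and 507 in the control for the fibroblast list, 1010 with miR-483 and 982 in the control for the immune list, and 82.6 with miR-483 and 59.2 in the control for the endothelial list. Their part in the differences below was not tested. The defining genes COL1A1, PTPRC, CD3E, VWF and CDH5 were below detection on both arrays. The miR-483 array had 14556 detected probes and the control array 13861, and their deposited median signals were 112.5 and 115.4.

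The 2 arrays were close across the genome. Over all 48803 probes Pearson's r between the miR-483 and control levels was 0.993, a description over probes of a single pair of arrays. The median difference, miR-483 minus control, was 0.01 on the log2 scale, and 96.7% of genes lay within 1.5-fold. Of the 9673 genes 4684 were below 0 (48.4%) and 4977 above. Scaling the arrays by medians in place of quantiles put 39.1% below 0, so counts of signs depend on the scaling. Genes at least 1.5-fold lower on the miR-483 array numbered 153, which is 1.58% of those described, and genes at least 1.5-fold higher numbered 164, or 1.70%. At 2-fold the counts were 30 lower (0.310%) and 32 higher (0.331%). These shares are the background against which the counts for gene groups below are set.

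Most of the large differences came from dim genes. With genes ranked by mean level into 8 bins of equal number, the robust SD of the difference (from the median absolute deviation) was 0.39 in the dimmest bin and 0.14 in the brightest. The dimmest bin, with mean levels up to 6.92, held all 562 genes detected on a single array, 23 of the 30 genes at least 2-fold lower and 31 of the 32 at least 2-fold higher. On the dimmer of the 2 arrays, 22 of the 30 and 31 of the 32 were below detection. Genes at the edge of the detection rule were of this kind. The 80 genes just inside it, with a best score of 0.9908, had a median level of 6.20 on the array where they were brighter, and the 53 just outside it, with a best score of 0.9895, had 6.15. Among brighter genes more were lower than higher. Of the 4555 genes detected on both arrays with a mean level above 9.44, the median of such genes, 11 were at least 1.5-fold lower on the miR-483 array and 2 were at least 1.5-fold higher. In each of the 4 brightest bins 11 to 14 genes lay more than 3 robust SDs below the median of the bin and 0 to 5 more than 3 above. With the arrays scaled by medians in place of quantiles, 6 of the brighter genes were at least 1.5-fold lower. The split at the median level was chosen after the data were seen.

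**Figure D1:**
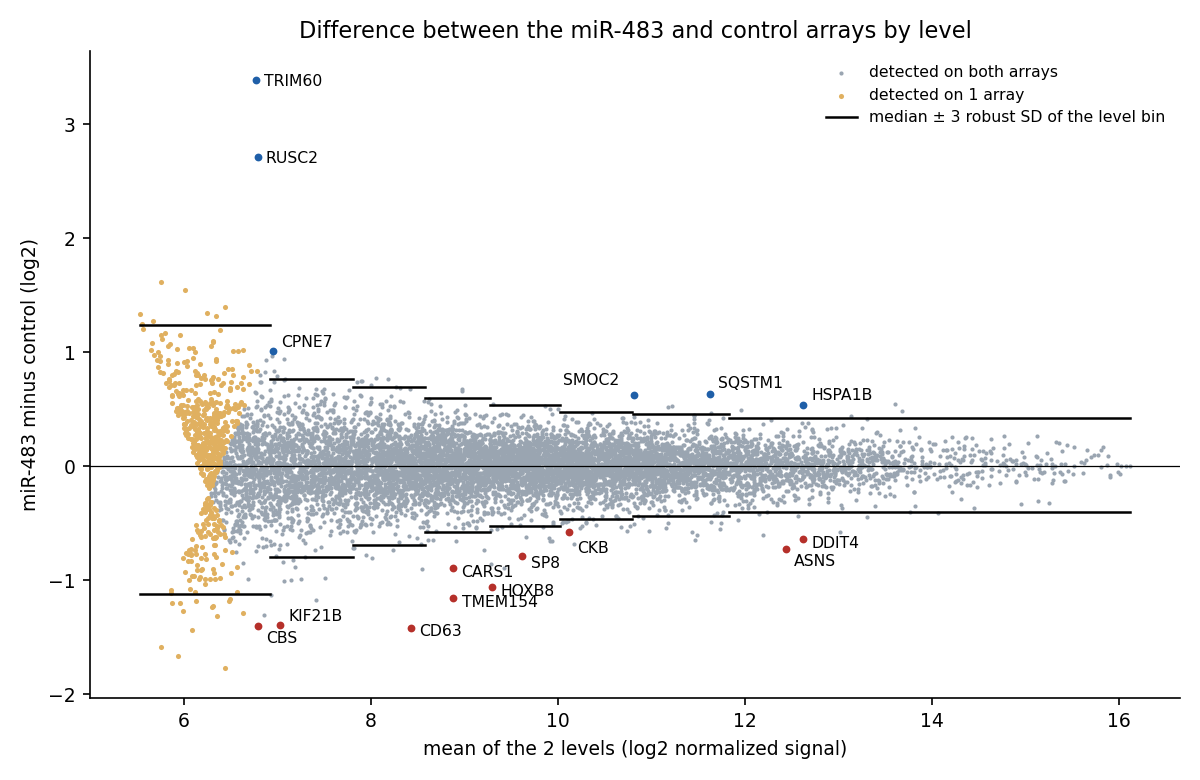
Log2 difference, miR-483 minus control, against the mean of the 2 levels for the 9673 genes. Grey points are genes detected on both arrays, yellow points genes detected on 1 array, black lines mark 3 robust SDs around the median of each of 8 level bins, and red and blue mark named genes that were lower and higher with miR-483; ASNS and DDIT4 lie well below the lower line among bright genes.

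The 11 bright genes at least 1.5-fold lower on the miR-483 array were led by SP8, a zinc-finger transcription factor. SP8 had a level of 9.23 on the miR-483 array and 8.89 on the miR-551a array, against 10.01 on the control array and 9.79 on the Ls-Parental array, a 1.72-fold lower signal with miR-483 than in the control. ASNS, the enzyme that makes asparagine, had 12.07 with miR-483 and 11.86 with miR-551a, against 12.80 in the control and 13.81 in Ls-Parental, and was 1.66-fold lower with miR-483 than in the control. In both genes the 2 microRNA arrays had the lowest levels of the 4.

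FZD6, a frizzled receptor for WNT ligands, had a level of 9.83 on the miR-483 array, against 10.51 on the control array, and was 1.60-fold lower; its other levels were 10.23 with miR-551a and 10.54 in Ls-Parental. BAMBI, a decoy receptor that dampens BMP and TGF-β signals, had 9.61 with miR-483, against 10.26 in the control, with 10.17 for miR-551a and 11.26 for Ls-Parental. PRKCI, an atypical protein kinase C of epithelial polarity, had 9.35 with miR-483 against 9.97 in the control, with 9.58 and 9.65 on the miR-551a and Ls-Parental arrays. In these 3 genes miR-483 gave the lowest of the 4 levels.

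LGALS3, the sugar-binding galectin-3, was 1.52-fold lower at 11.89 with miR-483 against 12.50 in the control, but a second probe differed by 0.08. IL33, a nuclear cytokine of epithelial cells, had 11.14 with miR-483 against 11.73 in the control, just short of 1.5-fold and so outside the 11. Its levels were 11.15 with miR-551a and 10.87 in Ls-Parental, and the control array was the highest of the 4. The others of the 11 were MARS1, XPOT and DDIT4, which belong to the amino acid response and are taken up below, AMY1B, an amylase gene with near-identical copies that a probe cannot tell apart, at 9.59 with miR-483 against 10.22 in the control, and SNAR-A1, a small non-coding RNA of a multicopy family, at 11.18 with miR-483 against 11.79 in the control.

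On the other side, SQSTM1, the autophagy receptor p62, was 1.55-fold higher at 11.94 with miR-483 against 11.31 in the control, while the miR-551a and Ls-Parental arrays had 12.23 and 11.97. The control array was thus the lowest of the 4. SMOC2, a secreted matrix protein of intestinal stem cells, was 1.54-fold higher, with 11.12 for miR-483 against 10.50 for the control, 10.73 for miR-551a and 10.77 for Ls-Parental, and here miR-483 was the highest of the 4. The next 10 bright genes differed by 0.55 to 0.47 on the log2 scale, below 1.5-fold. They were RPL31, a ribosomal protein gene whose probe may read its many processed copies, the inducible heat shock gene HSPA1B, whose near-identical neighbour HSPA1A the probe may also read, THEM6, RESF1, TUBA4A, L3MBTL2, RCC1, UHRF1, GLRX5 and SPG7. UHRF1, which keeps DNA methylation at replication, had 12.20 with miR-483 against 11.71 in the control, and RCC1, the exchange factor of the Ran GTPase, had 10.25 with miR-483 against 9.75 in the control. Second probes differed by 0.12 for RCC1, 0.26 for SPG7 and -0.09 for RESF1, which thus had no settled direction.

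Detection on both arrays together with a 2-fold difference held for 8 lower genes and 1 higher gene. CD63, a tetraspanin found in late endosomes, had a level of 7.72 with miR-483 against 9.14 in the control, and 8.58 and 9.56 with miR-551a and in Ls-Parental, so that miR-483 was the lowest of the 4. TMEM154, a membrane protein gene, had 8.30 with miR-483 and 8.47 with miR-551a, against 9.46 in the control and 9.70 in Ls-Parental. HOXB8, a homeobox gene of positional identity, had 8.77 with miR-483 and 9.09 with miR-551a against 9.83 in the control, and 5.83 in Ls-Parental. These 3 had mean levels above those of the 2 dimmest bins.

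The other 6 were in the 2 dimmest bins. KIF21B, a kinesin motor, had 6.33 with miR-483 against 7.73 in the control, and MORN4 had 6.20 with miR-483 against 7.51 in the control. THBS4, a thrombospondin of the matrix, was at 6.37 with miR-483 and differed by -1.13 from the control. COXFA4L2, a mitochondrial protein gene induced in hypoxia and formerly called NDUFA4L2, was at 6.82 with miR-483 and differed by -1.17. STK11, which encodes the energy-sensing kinase LKB1, had 6.57 with miR-483 against 7.57 in the control, while Ls-Parental was at 6.53. CPNE7, a copine that binds membranes with calcium, was the single higher gene, with 7.45 for miR-483 against 6.44 for the control. A second CPNE7 probe differed by 0.48, short of 1.5-fold. With miR-551a KIF21B, THBS4 and COXFA4L2 were also low, at 6.48, 6.47 and 6.43. MORN4, STK11 and CPNE7 lay between their miR-483 and control levels there, at 6.93, 7.33 and 6.90. The control array is shared by both microRNA comparisons. The lowest detected levels were 6.15 on the miR-483 array and 6.38 on the control array.

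Where a gene was below detection on the dimmer array, the difference is given as a bound. The bound compares the brighter level with the lowest level any gene was detected at on the dim array, or with the gene's own dim level where that was higher. On this measure the signal of CBS was lower by at least 2.54-fold with miR-483, of CBARP by at least 2.26-fold and of EXOC8, an exocyst subunit, by at least 2.18-fold. The last 2 are named because they complete the 11 genes 2-fold lower or more by bound or by measurement. CBARP had 5.08 with miR-551a and 5.73 in Ls-Parental, so the control array alone was high. EXOC8 had 6.57 with miR-551a and 6.59 in Ls-Parental. TRIM60 had a level of 8.46 on the miR-483 array and 5.08, 4.99 and 5.09 on the control, miR-551a and Ls-Parental arrays, a bound of 4.22-fold or more higher with miR-483. RUSC2 had 8.15 on the miR-483 array against 5.43 on the control array, with 5.09 for miR-551a and 4.68 for Ls-Parental, a bound of 3.39-fold or more. For both genes the miR-483 array stood alone, and the levels on the other 3 arrays were below 6.15.

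Further bounds were smaller. PER1, a repressor of the circadian clock, was at least 1.58-fold lower on the miR-483 array, HIF3A, a hypoxia-inducible factor subunit, at least 1.54-fold, FBLN5, an elastic fibre protein, at least 1.39-fold, ZNF100 at least 1.33-fold and ERAP1, which trims peptides for HLA class I, at least 1.31-fold. On the miR-551a and Ls-Parental arrays these genes lay between 4.87 and 5.89, so the control array alone was high. DDX49, which encodes a DEAD-box helicase, had a bound of 1.32-fold or more higher, NOL9, an RNA kinase of ribosome biogenesis, of 1.14-fold and KLHDC8A of 1.11-fold. With miR-551a DDX49 and NOL9 had 6.38 and 6.44, beside 6.78 and 6.57 with miR-483, and KLHDC8A had 5.00. Bounds this size make no allowance for noise near background.

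An array carries several probes for some genes, which gives a check within the pair of arrays. For 2141 genes 2 or more probes were detected on both arrays, and the differences of the brightest and second probe were related over genes with Pearson's r at 0.24 and Spearman's rho at 0.21, given as a description since probes of a gene share both arrays. Among 19 genes whose brightest probe differed by at least 1.5-fold, the second probe had the same sign in 13 and was past 1.5-fold in 3. All 3 were lower with miR-483. The second probe of ASNS had a level of 7.46 with miR-483 against 9.44 in the control, a difference of -1.99, where the brightest probe gave -0.73. SP8 gave -0.79 by its brightest and -0.99 by its second probe, and TMEM154 gave -1.16 by its brightest and -0.93 by its second. XPOT, at -0.65 by the brightest and -0.41 by the second, was lower by both probes but past 1.5-fold by its brightest alone.

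**Figure D2:**
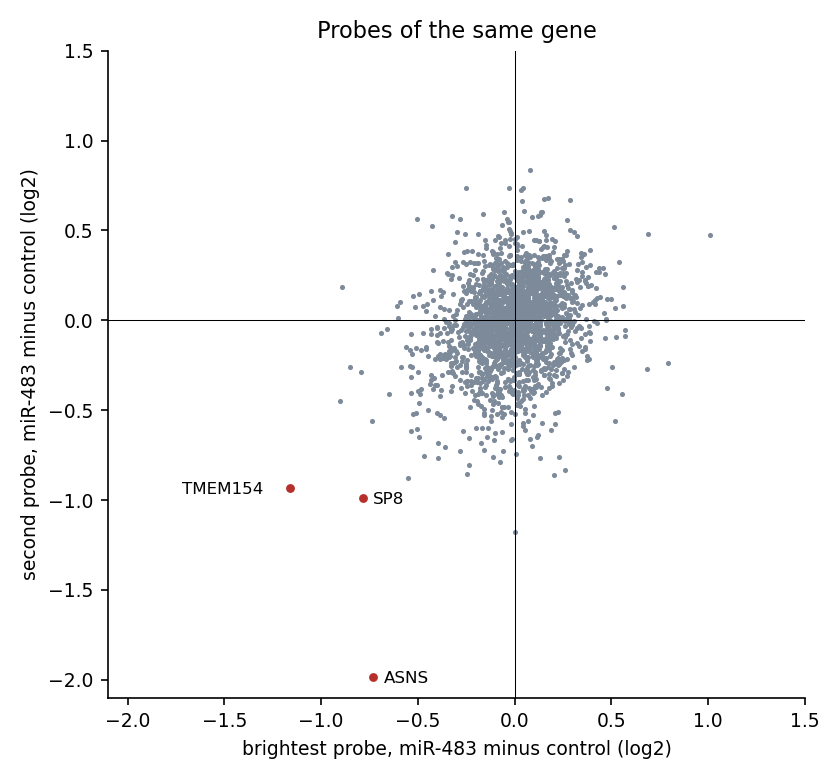
Log2 difference, miR-483 minus control, of the second probe against that of the brightest probe for 2141 genes with at least 2 probes detected on both arrays. Most points form a round cloud about 0, and ASNS, SP8 and TMEM154 lie apart from it at the lower left.

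Genes of the amino acid response were lower with miR-483 in most cases. The list of ATF4 targets and the integrated stress response had 19 detected members, of which 17 were below 0 and 2 above, with a median difference of -0.33 against 0.01 over all genes described. Of all genes described 48.4% were below 0. At 1.5-fold 4 of the 19 were lower and 0 higher, beside backgrounds of 1.58% and 1.70%. The 4 were ASNS, XPOT, which exports transfer RNAs from the nucleus, at 11.14 with miR-483 against 11.79 in the control, DDIT4, an inhibitor of mTORC1 signalling, at 12.30 with miR-483 against 12.94 in the control, and INHBE, a TGF-β family subunit below detection with miR-483 and at least 1.72-fold lower. ATF4 itself had 14.79 with miR-483 against 15.12 in the control, with a second probe at -0.20. The pseudokinase TRIB3 differed by -0.56, the stress cytokine GDF15 by -0.57 and the transcription factor ATF3 by -0.53; these 3 are named with their values seen. The 2 members above 0 were ATF5 (0.12) and EIF4EBP1 (0.02).

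Enzymes of serine synthesis, one-carbon metabolism and transsulfuration had 15 detected members, 10 below 0 and 5 above, with a median of -0.22. CBS, the first enzyme of transsulfuration, was the single member past 1.5-fold, with 6.09 on the miR-483 array and 6.30 on the miR-551a array, against 7.49 in the control and 9.42 in Ls-Parental. Singled out after their values were seen, the serine pathway enzymes PSAT1 and PHGDH had 12.72 and 13.56 with miR-483 against 13.30 and 13.97 in the control, and MTHFD2, a mitochondrial folate enzyme, differed by -0.50. CTH, the next transsulfuration enzyme after CBS, lay on the other side at 0.33, with its second probe at -0.03.

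Among amino acid transporters 10 of 14 detected members were below 0 and 4 above, with a median of -0.21, and 2 were at least 1.5-fold lower. SLC6A9, a glycine transporter, had 7.61 with miR-483 and 6.96 with miR-551a, against 8.41 in the control and 8.57 in Ls-Parental. SLC43A1, a carrier of large neutral amino acids, had 6.59 with miR-483 against 7.38 in the control. The neutral amino acid carriers SLC1A4, SLC38A1 and SLC1A5, named after their values were seen, differed by -0.54, -0.51 and -0.50.

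Of the cytosolic aminoacyl-tRNA synthetases, which charge transfer RNAs, 13 of 19 detected members were below 0 and 6 above, with a median of -0.12. The cysteine enzyme CARS1 had 8.43 with miR-483 and 8.51 with miR-551a, against 9.32 in the control and 9.69 in Ls-Parental, 1.86-fold lower with miR-483 than in the control. The methionine enzyme MARS1 had 9.59 with miR-483 and 9.58 with miR-551a, against 10.25 in the control and 10.82 in Ls-Parental, 1.58-fold lower. None was at least 1.5-fold higher; the phenylalanine enzyme subunits FARSA and FARSB differed by 0.37 and 0.20. NARS1, the asparagine enzyme, is in this list and in the ATF4 list, and differed by -0.35.

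Second probes of these genes were mostly below 0 too. Over the 4 lists 11 genes had 2 probes detected on both arrays, and all 7 whose brightest probe was below 0 had a second probe below 0, with medians over the 11 of -0.28 for the brightest and -0.20 for the second probe. The miR-551a array was lower still for the ATF4 list, since the median difference of its detected members between miR-483 and miR-551a, miR-483 minus miR-551a, was 0.24. It was 0.11 for the serine and one-carbon list, 0.06 for the transporters and 0.04 for the synthetases. The control array is shared by both microRNA comparisons, and with 1 array each an effect of the microRNAs and a high control culture cannot be told apart.

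**Figure D3:**
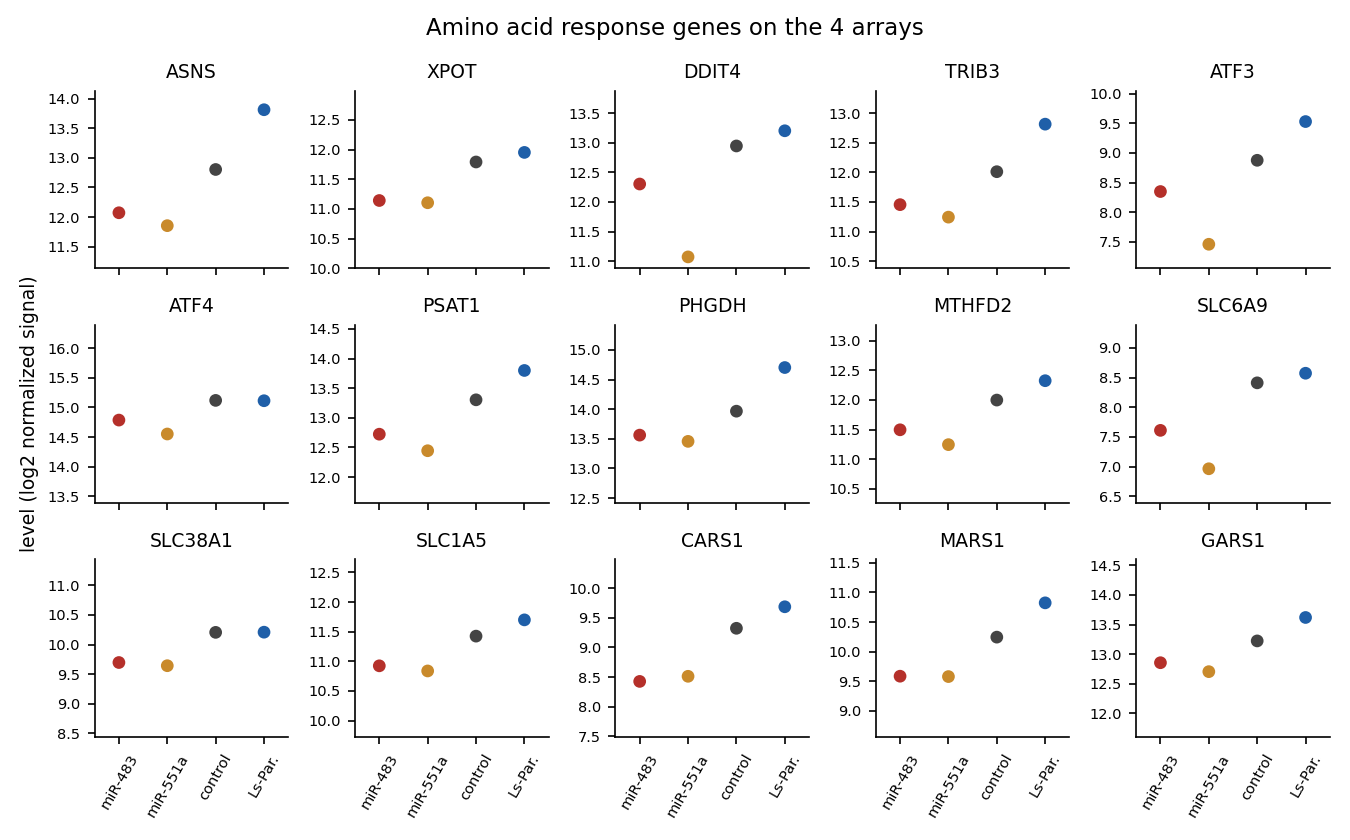
Levels (log2 normalized signal) of 15 genes of the amino acid response on the miR-483, miR-551a, control and Ls-Parental arrays, 1 point per array, with every panel spanning 3 log2 units. The 15 were picked from 66 detected list members after their values were seen, so that miR-483 and miR-551a lie below the control and Ls-Parental in each follows from the choice; members such as CTH, SHMT1, FARSA and ATF5, which were above 0, are not drawn.

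Some promoters of these genes hold a short element. ATF4 with a C/EBP partner is known to bind the element TGATGNAA, which was searched on both strands in RefSeq promoters of GRCh38.p14, each from 250 bases before to 50 after the start. It was found in 3.62% of 35116 promoters. Counted by gene, in any promoter of the gene, it was found in 4.46% of 27305 genes. Among the 8018 described genes with a promoter sequence the share was 2.81%. Of the 55 detected genes in the 4 amino acid lists with a promoter sequence, 18 held it (32.7%); such genes were listed partly because ATF4 is known to act on them, so the share is no independent finding. CBS, SLC6A9, SLC43A1 and DDIT4, among the list members furthest below the control, had a promoter sequence without the element, as did SP8. Windows of 30 bases around the match are shown for the 7 list members furthest below the control among those that hold it, and for TMEM154, which is in none of the lists, with the match in capitals and the gene's own strand read 5′ to 3′. Among other genes named here and outside these lists, RPL31, which differed by 0.55, also held it. So did IGF2BP2 (-0.17), S100P (-0.42) and FBLN5 (-1.27), and their windows are not shown.

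ASNS: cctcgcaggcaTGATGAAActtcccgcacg
CARS1: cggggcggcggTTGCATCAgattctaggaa
MARS1: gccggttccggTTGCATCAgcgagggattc
SLC1A4: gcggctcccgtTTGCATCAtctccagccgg
ATF3: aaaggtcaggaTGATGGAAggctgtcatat
SLC38A1: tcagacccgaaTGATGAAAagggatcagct
SLC1A5: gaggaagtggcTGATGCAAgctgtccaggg
TMEM154: ctcctgcagaaTTACATCActtcctaaaaa

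In GRCh38.p14 these windows lie at chr7:97872458-97872487 on the minus strand for ASNS, chr11:3057407-3057436 on the minus strand for CARS1, chr12:57488053-57488082 on the plus strand for MARS1 and chr2:64989381-64989410 on the plus strand for SLC1A4. They lie at chr1:212565205-212565234 on the plus strand for ATF3, chr12:46266502-46266531 on the minus strand for SLC38A1, chr19:46784893-46784922 on the minus strand for SLC1A5 and chr4:152680061-152680090 on the minus strand for TMEM154. In CARS1, MARS1, SLC1A4 and TMEM154 the element runs on the opposite strand, so its reverse complement appears in capitals. Counted from the gene's start, the first base of the match lay at -68 in ASNS, -82 in TMEM154, -2 in CARS1, -4 in MARS1 and in SLC38A1, and -7 in SLC1A4. A match is a description of these letters and not a shown binding site.

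Grouping all described genes by the motif, whatever list they were in, gave a lower median for those that hold it. The 225 genes with it had a median difference of -0.08, with 60.4% below 0, against 0.01 and 48.2% for the 7793 without it. On the arrays of miR-551a and the control the same 225 genes had a median difference of -0.11, miR-551a minus control, and between the 2 microRNA arrays it was 0.01, miR-483 minus miR-551a; the control array is shared. With only genes detected on both arrays, whose entry did not turn on 1 array, the 208 with the motif had a median of -0.08, with 61.5% below 0, and the 7370 without it 0.00, with 49.3% below 0. Of the 208, 7 were lower by 1.5-fold or more on the miR-483 array (3.37%) and 0 higher, against 0.760% lower and 0.488% higher of the 7370. Without the members of the 4 lists the 207 other motif genes had a median of -0.06, with 57.5% below 0. Among genes above the median level, the 116 with the motif had a median of -0.06 and the 3762 without it 0.01. The related element TGACGTCA, bound by CREB and ATF family factors, was held by 318 described genes, whose median was 0.00. Of the 318, 1 was at least 1.5-fold lower (0.314%) and 4 higher (1.26%), against 1.61% lower and 1.56% higher of the 7700 without it. This grouping was made after the list values were known.

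**Figure D4:**
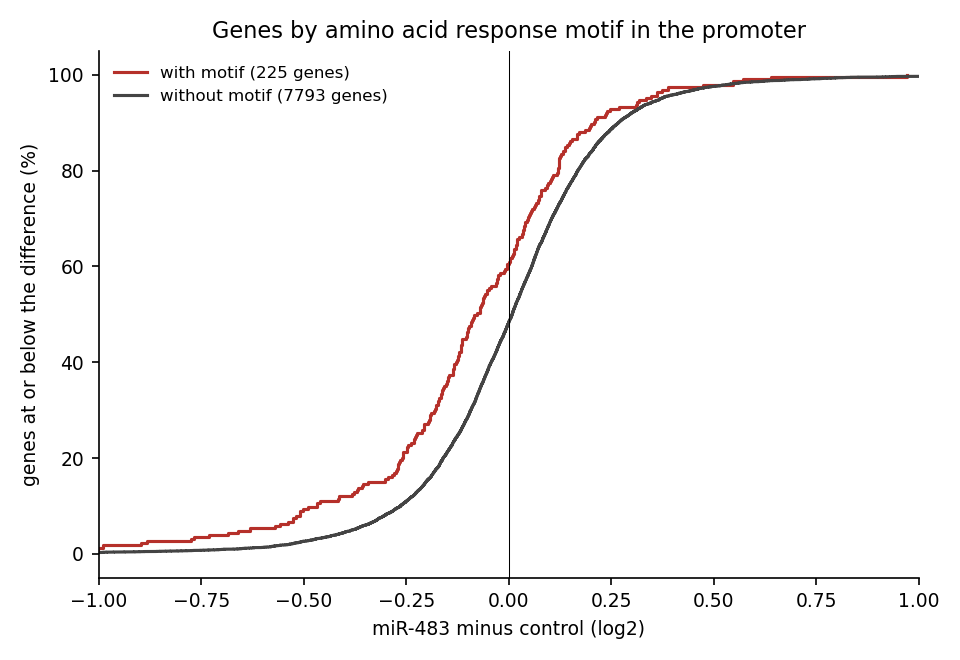
Share of genes (%) at or below each log2 difference, miR-483 minus control, for the 225 described genes with TGATGNAA in a promoter (red) and the 7793 without it (grey), with the x axis limited to differences within 1. The red curve lies above the grey one over most of the range, with 60.4% against 48.2% of genes below 0.

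Counting genes detected on 1 array too, 9 of the 207 motif genes outside the lists (4.35%) were at least 1.5-fold lower and 2 (0.966%) higher. Of the 7793 genes without the motif, 1.45% were lower and 1.57% higher. The 9 are named after their values were seen. TMEM154, FUT1, a fucosyltransferase of blood group antigens, GADD45G, a stress-induced growth arrest gene, and SEMA3C, a secreted semaphorin, were detected on both arrays. FUT1 had 6.75 with miR-483 against 7.63 in the control, GADD45G had 6.62 with miR-483 against 7.31 in the control, and SEMA3C had 8.18 with miR-483 against 8.81 in the control. FBLN5, TLR3, SUN3, HCG27 and PLCE1 were below detection on the miR-483 array and have bounds of 1.19-fold to 1.54-fold. The 2 motif genes at least 1.5-fold higher, GZF1 and CD163L1, were below detection on the control array. These 7 entered through the array where they were brighter.

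Genes linked to miR-483 by earlier work were mostly close to the control. CKB, brain-type creatine kinase, is followed in published work around this series and may have been picked from these arrays. Its level was 9.83 with miR-483, against 10.41 in the control, with 9.96 for miR-551a and 9.95 for Ls-Parental, so the control was the highest and the other 3 lay between 9.83 and 9.96. CKB was 1.49-fold lower with miR-483 than in the control, just short of 1.5-fold. Its difference was -0.58, where the robust SD of its level bin was 0.16. Of 10 genes published as targets of miR-483-5p, 7 were detected, CKB among them, 6 below 0 and 1 above, with a median of -0.04 and 0 past 1.5-fold in either direction. ALCAM, a cell adhesion molecule, had 12.85 with miR-483 against 13.03 in the control, and PPARA, a nuclear receptor of fatty acid metabolism, had 7.34 with miR-483 against 7.62 in the control. The others, ARHGDIA, SRF, MAPK3 and FIS1, differed by -0.04, -0.03, -0.04 and 0.18. The signs of SRF and MAPK3 changed in 1 other processing setting each.

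In creatine metabolism all 5 detected genes were below 0, with a median of -0.32. SLC6A8, the creatine transporter, was below detection with miR-483 at 5.77, against 6.58 in the control and 6.55 and 6.75 on the miR-551a and Ls-Parental arrays, a bound of at least 1.35-fold lower. The mitochondrial creatine kinase genes CKMT1A and CKMT1B, near-identical copies that probes may not tell apart, differed by -0.03 and -0.32, and GAMT, which makes creatine, by -0.04.

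IGF2, the host gene of the microRNA, was below detection on both arrays, at 5.22 with miR-483 and 4.87 in the control. H19, the non-coding RNA beside it, was at 13.80 with miR-483 and 13.76 in the control, and at 9.74 in Ls-Parental. Of 10 detected genes of the locus and the IGF pathway, 5 were below 0 and 5 above, with a median of -0.07, and 1 was past 1.5-fold: IGFBP7, an IGF-binding protein, was at least 1.57-fold lower on the miR-483 array. The docking protein gene IRS1 had 8.15 with miR-483 against 8.50 in the control, and IGF2BP3, an RNA-binding protein, had 10.75 with miR-483 against 11.04 in the control. The receptors and carriers IGF2R, IGFBP2, IGFBP3 and IGFBP4 differed by 0.02 to 0.09.

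Chaperones were mostly above 0, beside 4977 of 9673 over all genes described. Of 22 detected cytosolic chaperones 18 were above 0 and 4 below, with a median of 0.14 and 0 past 1.5-fold. HSPA8, the constitutive HSP70, had 14.75 with miR-483 against 14.52 in the control, and HSP90AA1 had 15.61 with miR-483 against 15.44 in the control. HSPA1B had 12.89 with miR-483 and 13.32 with miR-551a, against 12.35 in the control and 12.17 in Ls-Parental. Chaperones of the endoplasmic reticulum had a median of 0.06, with 11 of 17 above 0, and XBP1 and HSP90B1, a factor and a chaperone of the unfolded protein response, differed by -0.12 and -0.05.

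**Figure D5:**
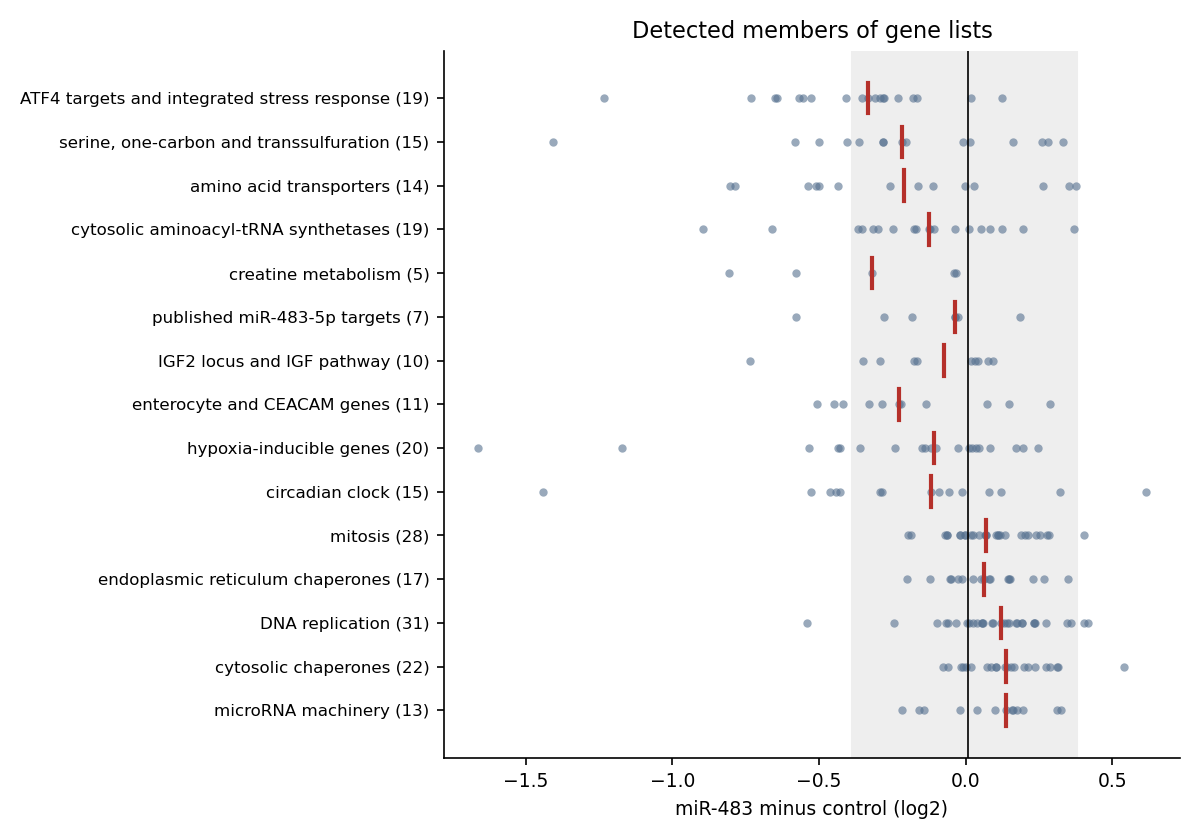
Log2 difference, miR-483 minus control, of the detected members of 15 gene lists (points, with the number of members in brackets) and the median of each list (red bar). The grey band spans the 5th to the 95th percentile of all 9673 genes, -0.39 to 0.38, and the black line is their median. Medians of the 15 lists drawn, out of 51, run from -0.33 for ATF4 targets to 0.14 for the cytosolic chaperones and the microRNA machinery. Some lists not drawn lay further out, such as HOX genes (-0.34) and small nucleolar RNA host genes (0.24).

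DNA replication genes were mostly above 0 as well, with 25 of 31 above 0, 6 below, a median of 0.12 and 0 past 1.5-fold. Over all genes described 4977 of 9673 were above 0. MCM3, a subunit of the replicative helicase, had 14.22 with miR-483 against 14.08 in the control, and ORC6, of the origin recognition complex, had 14.77 with miR-483 against 14.75 in the control. A second ORC6 probe differed by 0.43. MCM4 and TK1, named after their values were seen, differed by 0.42 and 0.40, with a second MCM4 probe at 0.11. Mitosis genes had a median of 0.07, with 19 of 28 above 0. PTTG1 differed by 0.19 and BUB3 by 0.11, with a second BUB3 probe at -0.15. Of the microRNA machinery 9 of 13 detected genes were above 0, with a median of 0.14, and PRKRA, a partner of Dicer, had 11.20 with miR-483 against 10.88 in the control.

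Differentiation genes of the gut were mostly below 0. Of 11 detected enterocyte and CEACAM genes 8 were below 0 and 3 above, with a median of -0.23 and 0 past 1.5-fold. CEACAM6, a surface glycoprotein, had 13.08 with miR-483 against 13.53 in the control, and the lectin gene LGALS4 had 13.69 with miR-483 against 13.92 in the control. The 12 detected goblet and secretory genes had a median of -0.03, with REG4 and TFF3 at 0.16 and -0.06. In the list of WNT targets and intestinal stem cell genes 9 of 14 were above 0, the median was 0.03, and SMOC2 was the single gene past 1.5-fold.

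Several families held 1 or 2 members past 1.5-fold, beside 1.58% lower and 1.70% higher over all genes described. The lists were chosen with earlier results of these data known. Single members past the fold, here and in the lists that follow, are thus no result about their families. Tetraspanins had a median of -0.07, and CD63 was the only one of 19 past 1.5-fold. Kinesins had a median of 0.02, and KIF21B was the only one of 24. Of 6 detected HOX genes 5 were below 0, with a median of -0.34, and HOXB8 was the only one past 1.5-fold. Among 21 genes of LKB1, AMPK and mTOR signalling STK11 was the only one, beside a median of -0.01. In the lysosome and autophagy list the protease gene CTSZ had 7.02 with miR-483 against 7.99 in the control, SQSTM1 lay on the other side, and the median was 0.03. The circadian clock list held PER1 and, in the other direction, DBP, a clock output factor at 8.52 with miR-483 against 7.91 in the control, with a median of -0.12 and 11 of 15 below 0.

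Matrix and thrombospondin genes had a median of -0.13, with FBLN5 and THBS4 past 1.5-fold among 11 detected. Of 10 detected integrins ITGB4, a subunit of hemidesmosomes, was at least 1.59-fold higher on the miR-483 array, and the median was -0.06. The epithelial junction list held PKP3, a plakophilin at 8.26 with miR-483 against 7.52 in the control, and CLDN4, a claudin at least 1.27-fold lower, with a median of 0.07. Hypoxia-inducible genes had a median of -0.11, with 12 of 20 below 0, and HIF3A and COXFA4L2 were its members past 1.5-fold. Interferon-stimulated and HLA class I genes had a median of -0.01, with ISG20, an RNA exonuclease, at 8.34 with miR-483 against 8.99 in the control and TAP2, a peptide transporter, at 7.27 with miR-483 against 7.87 in the control by its brightest probe and a difference of 0.01 by its second. KLF10, an early transcription factor, had 6.90 with miR-483 against 7.69 in the control, with a second probe at -0.29, in an immediate early list with a median of 0.05.

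Large housekeeping groups lay near 0. The medians were 0.01 for 62 oxidative phosphorylation genes, 0.06 for 20 genes of the tricarboxylic acid cycle, 0.06 for 17 glycolysis genes, -0.05 for 67 cytosolic ribosomal protein genes, 0.05 for 74 mitochondrial ribosomal protein genes, 0.00 for 38 translation factors and 0.03 for 27 proteasome subunits. GAPDH had 14.91 with miR-483 against 14.89 in the control, and EEF1A1, the elongation factor, 16.12 on both. MRPL28, of the mitochondrial ribosome, was the one member of these 7 groups past 1.5-fold, at 8.36 with miR-483 against 7.64 in the control.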

How the data were processed

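Per the labels' protocols, total RNA of cells grown in serum medium was taken before confluence and biotin-labelled cRNA was hybridised to Illumina bead arrays, 1 array for each of 4 cultures. Each array has 2 deposited columns, per the file headers: linear probe intensity, which the authors left unnormalized between arrays, and Detection, a score from 0 to 1. The authors also deposited scaled intensity values, which match the first table multiplied by a constant for each array (1.03 for miR-483, 1 for the control), with software not given in the sources used here. Groups came from the sample titles.

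With limma 3.58.1 in R 4.3.3, signals were background-corrected by normexp from the detection p (1 minus the score), with an offset of 16, quantile-normalized over the 4 arrays and put on a log2 scale (neqc); the log2 values are not the authors', who deposited linear values. Of 48803 probes 27578 had 1 gene in the platform annotation, 13 several and 21212 none; 27541 were matched by gene number to RefSeq of GRCh38.p14. A gene's value is that of the probe with the highest mean level on the 4 arrays, and levels are not compared between genes. The steps were tested on simulated arrays with changes of more than 2-fold set in genes well above background. Changes of 1.5-fold, and changes in genes near background, were not simulated.

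The comparison, the 51 gene lists and the genes named were chosen with earlier results of these data known. Genes named were CKB, SLC6A8 and the detected published targets and IGF genes; among genes detected on both arrays and above the median level, the 12 furthest each way; those at least 2-fold different on both arrays; the 5 largest bounds each way whose detection p on the dim array was 0.05 or more; genes with all probes past 1.5-fold the same way; and per list up to 4 members past 1.5-fold or else the 2 brightest. Others are said to be named after their values were seen. Sites of miR-483 in messenger RNAs were not analysed here, and the promoter search was added after the data were seen.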

Additional observations from a re-analysis of the deposited data

Results flagged for a closer look

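Probes without a single gene name were left out of the comparison, and some of them differed between the arrays. Of 21225 such probes 2282 were detected on at least 1 of the 2 arrays, and 16 of these were at least 2-fold higher with miR-483, none of them by bound, and 10 at least 2-fold lower, of which 1 was so by bound. They are singled out because they are a signal in data that the gene comparison does not use. The probe ILMN_1680360 had a level of 4.97 with miR-483, against 7.60 in the control, at least 2.74-fold lower, with 4.81 and 4.91 on the miR-551a and Ls-Parental arrays, so the control array alone was high. The probe ILMN_1895548, among the brightest, had 14.12 with miR-483 against 15.10 in the control, a difference of -0.99, with 14.43 for miR-551a and 14.70 for Ls-Parental. On the other side ILMN_1812549 had 8.61 with miR-483 against 7.61 in the control.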

How the results depend on the processing

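The counts of genes past a fold depended on how dim genes were treated. Against 30 lower and 32 higher genes at 2-fold and 153 and 164 at 1.5-fold, no background correction gave 1 and 2, and 38 and 14; the authors' scaled values 1 and 2, and 38 and 16; an offset of 50 gave 8 and 3, and 85 and 66. Only genes detected on both arrays gave 8 and 1, and 79 and 56. Bounds in place of measured differences gave 11 and 3, and 103 and 70. Bounds are not alike both ways, since the lowest detected levels were 6.15 on the miR-483 array and 6.38 on the control array. A Detection score above 0.95 gave 63 and 48 at 2-fold, and 407 and 336 at 1.5-fold, and no filter gave 63 and 48, and 451 and 368. Both of these add genes below detection, as the filter on both arrays removes them; otherwise the cause was not tested. The share of higher genes among those past 1.5-fold was 51.7%, but 62.3% with median scaling, which moved the median of all genes to 0.06, 26.9% without background correction, 29.6% with the authors' values, 41.5% on both arrays and 40.5% with bounds. Lower genes above the median level numbered 6 with median scaling and 7 with the authors' values, against 11.

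Of 127 named genes, none past 1.5-fold turned direction in the 6 settings that change scaling, background, arrays or probes, and 101 to 127 moved by less than the spread of their level bin. Among the others SRF, MAPK3, BUB3, CCNG1, CDKN1A, PSMB1, COX7C, RPS2, S100A6, SNHG5, EPCAM, KRT18 and LYZ changed sign in 1 setting. These genes have no settled direction. List medians moved by less than 0.1 in 48 to 50 of 50 lists. Those of tetraspanins, epithelial junctions, LKB1 signalling, interferon, histone, fatty acid, cytosolic ribosomal, translation factor and goblet genes, all close to 0, changed sign in 1 or 2 settings and have no settled direction. The motif genes had a median of -0.08, and of -0.03 with median scaling, where genes without the motif had 0.06. No paired analysis was possible because each group has a single array and no test was run. The number of arrays limits all precision, and signals near background carry no order.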

Other observations

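The other gene lists were described by their medians alone. Fatty acid metabolism had a median difference, miR-483 minus control, of -0.06 over 21 detected genes (SCD 0.04, FASN -0.06), cholesterol synthesis 0.07 over 18 (HMGCS1 0.26, INSIG1 0.15) and metallothioneins, whose probes may read near-identical copies, -0.10 over 7, of which 6 were below 0 (MT1G -0.10, MT1E -0.17). NRF2 targets, the oxidative stress genes, had 0.06 over 16, with ABCC2, an export pump, detected on the miR-483 array alone and too dim there for a bound. Values for p53 targets were 0.01 over 16 (CCNG1 -0.02, CDKN1A -0.01), for NF-kB targets -0.13 over 12 (NFKB1 -0.18, NFKBIA 0.10), for ERK feedback genes and EGFR ligands -0.06 over 17 (PHLDA1 0.12, CCND1 -0.08) and for S100 proteins 0.04 over 9 (S100P -0.42, S100A6 -0.02). Second probes differed by -0.51 for CCNG1 and -0.60 for MT1E.

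Splicing and hnRNP genes had a median of 0.01 over 41, with SNRPD3 at 8.91 with miR-483 against 8.32 in the control. Nucleolar and ribosome biogenesis genes had 0.05 over 30, and the 2 past 1.5-fold, NOL9 and DDX49, were below detection on the control array. Histone genes had -0.02 over 18, with H2BC21 at 7.45 with miR-483 against 8.16 in the control, and H2BC8 detected on the miR-483 array alone with no bound. The 3 detected small nucleolar RNA host genes had 0.24 (SNHG15 0.24, SNHG5 0.02).

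The spread of differences was of like size for the 3 pairs of LvM3b arrays. Robust SDs were 0.18 for miR-483 minus miR-551a over 9753 genes, 0.20 for miR-483 minus control over 9673 and 0.22 for miR-551a minus control over 9619. At 1.5-fold 130 genes were lower and 158 higher with miR-483 than with miR-551a. With 1 array each, cultures and arrays cannot be told apart.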
